A study of Mus musculus with 13 samples.

Results

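Olig1, Olig2 and Olig3 are the 3 OLIG genes of the mouse, followed here by name out of 21938 protein-coding genes of the GENCODE annotation. They were examined for H3K4me3 and H3K27me3 called peaks within 2 kb of the transcription start site (TSS) or in the gene, for OLIG2 called peaks in the gene, up to 5 kb upstream and up to 100 kb around the neighbouring Olig2 and Olig1 genes, and for RNA sites of an OLIG2 immunoprecipitation. The 13 libraries, 1 for each group, came from 3 cell types. Neural stem cells (NSCs) were a cultured stock from the cortex at E14.5, for which the strain label gives C57BL/6 and the growth protocol CD-1. Oligodendrocyte precursor cells (OPCs) and newly formed oligodendrocytes (NFOs) were taken by immunopanning from the C57BL/6 brain at postnatal day 7, OPCs on an antibody to PDGFRα and then NFOs on an antibody to GalC. All were untreated and carried no labelled allele. ChIP-Seq (chromatin immunoprecipitation with sequencing) measured H3K4me3 and H3K27me3 in all 3 cell types and OLIG2 in OPCs and NFOs, and RIP-Seq (RNA immunoprecipitation with sequencing) measured OLIG2 and a control IgG. The labels place the RIP-Seq in NFOs and the study's methods in NSCs, so its cell type is uncertain. The control is titled an input, but its antibody label names an anti-rabbit IgG, and it is called IgG here. With no replicates, no difference between cell types could be tested, and all values describe these libraries.

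OLIG proteins are class II basic helix-loop-helix (bHLH) transcription factors that bind, as dimers, DNA with the letters CANNTG, called an E-box. OLIG2 directs the formation of motor neurons and then of oligodendrocytes in the ventral neural tube and stays present through the oligodendrocyte lineage, OLIG1 is known for its part in oligodendrocyte maturation, and OLIG3 acts in progenitors of the dorsal neural tube and hindbrain. H3K4me3 is a histone mark placed by trithorax-type enzymes at starts of active or poised genes, H3K27me3 is placed by Polycomb repressive complex 2 at silent developmental genes, and a promoter with both in overlapping peaks is called bivalent.

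The lists held 18284 to 33292 H3K4me3 peaks, 12688 to 36069 H3K27me3 peaks, and 7384 (OPC) and 16911 (NFO) OLIG2 peaks, with no read depths. The antibody label of all 6 histone libraries names the other mark than the title. By title, 42.0% to 69.8% of the peaks in each H3K4me3 list and 6.06% to 17.2% in each H3K27me3 list lay within 1 kb of the TSS of a protein-coding gene, and the titles were used. Each fold enrichment is over the input as the peak caller gave it. Listed H3K4me3 peaks were 553 (NSC), 987 (OPC) and 255 bp (NFO) wide at the median, and their names mark single-end reads in NSCs and paired-end reads in OPCs and NFOs, so a width was read first by its rank in its own list. Of the chosen marker genes, H3K4me3 in the NSC, OPC and NFO libraries was listed at 5, 5 and 3 of 5 for neural stem cells, at 4, 4 and 4 of 4 for OPCs, and at 3, 3 and 1 of 7 for oligodendrocytes, so these markers did not separate the libraries. H3K4me3 was also listed at 3 to 4 of 4 neuronal, 1 to 2 of 4 astrocyte, 1 to 2 of 4 microglial and 1 to 2 of 3 endothelial markers in each library, and their part in the results was not tested. Per the methods, plates coated with the lectin BSL-1 had first removed microglia and endothelial cells from the OPC and NFO preparations.

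H3K4me3 was listed at all 3 genes in all 3 cell types, and H3K27me3 was listed at Olig3 alone, also in all 3. Among all protein-coding genes, an H3K4me3 peak within 2 kb of the TSS or in the gene was listed for 67.1% in NSCs, 62.5% in OPCs and 47.9% in NFOs. For H3K27me3 these shares were 33.7%, 24.7% and 13.2%. The 3 genes therefore fell into a pair with H3K4me3 and no H3K27me3, Olig1 and Olig2, and a single gene with both marks, Olig3.

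Olig2 (ENSMUSG00000039830.9, chr16:91225457-91228677, plus strand, 3221 bp with 2 exons) had a wide H3K4me3 domain. In NSCs 1 peak of 9688 bp reached from 4154 bp before the TSS to 5533 bp after it, with a fold enrichment of 10.0. In OPCs 1 peak of 8705 bp reached from 4145 bp before to 4559 bp after, with a fold enrichment of 8.69. In NFOs the main peak of 3697 bp began 41 bp after the TSS, with a fold enrichment of 4.90, and a separate peak of 366 bp, with a fold enrichment of 3.60, lay 1728 to 1363 bp before it. The left edges of the NSC and OPC domains were thus nearly the same, and the NFO peaks left the bases just before the TSS uncovered. By width the main peak ranked 25 of 33292 (NSC), 14 of 18284 (OPC) and 29 of 21736 (NFO), near the top of each list. By fold enrichment it ranked 3494, 2476 and 7726, so Olig2 stood out by the width of its domain and not by the fold enrichment listed for it. The plot of width against fold enrichment shows each gene within its own list.

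**Figure D1:**
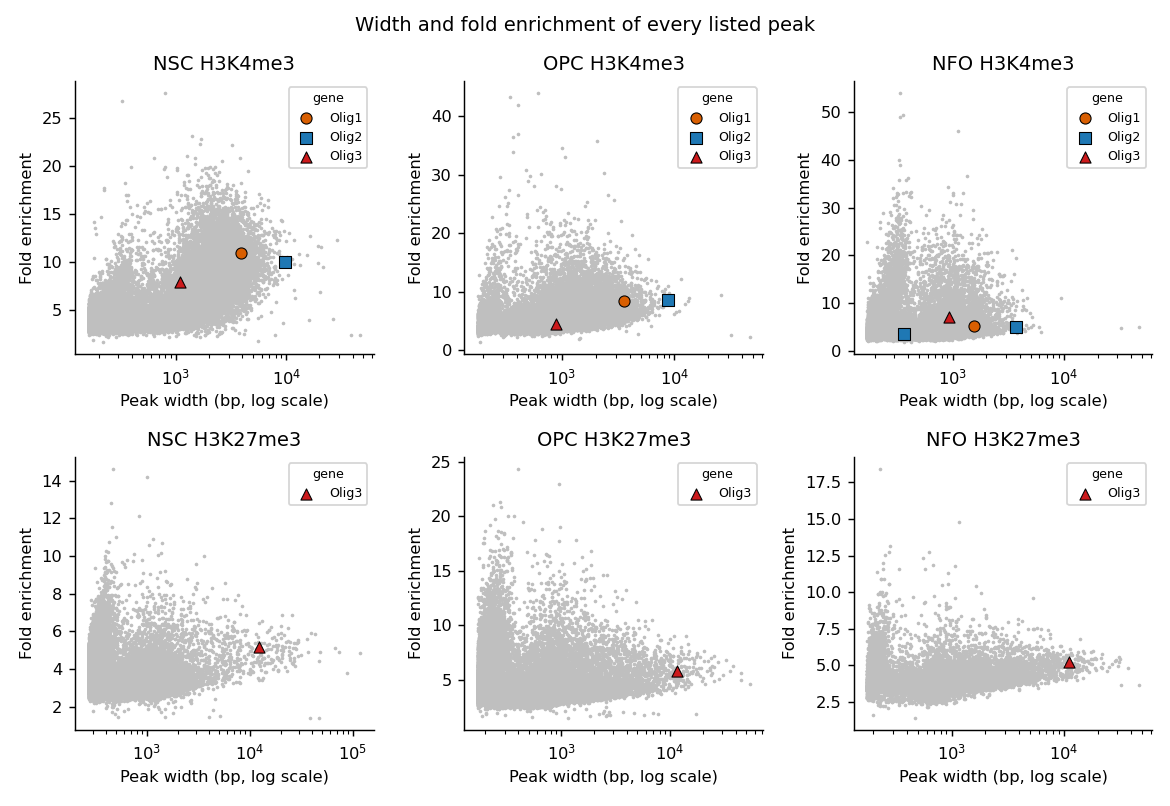
Width (bp, log axis) against fold enrichment of every listed peak (grey points) in the 6 histone lists, 1 library each, with the peaks within 2 kb of the TSS or in the gene of Olig1 (circles), Olig2 (squares) and Olig3 (triangles). The Olig2 H3K4me3 peaks of 9688, 8705 and 3697 bp lie at the right edge of their lists, as do the Olig3 H3K27me3 peaks of 12418, 11636 and 11220 bp.

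Counted over the 10 kb centred on the TSS, H3K4me3 peaks at Olig2 covered 9154 bp (NSC), 8705 bp (OPC) and 4289 bp (NFO). These values ranked 12, 9 and 27 among the 21938 protein-coding genes, whose median coverage was 1439, 742 and 0 bp. All 4193 bases that were covered in OPCs and in NFOs were also covered in NSCs, and OPCs and NFOs added none within this window. The lower coverage in NFOs went with the narrower peaks of that whole list, and the 1 library cannot be told apart from the cell type. The NFO value also rested on a low fold enrichment, since 226 bp of it remained with peaks above 5-fold, which took the peaks in the gene and near the TSS off the list. H3K27me3 covered 0 bp at Olig2 in each cell type.

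The bases just before the Olig2 TSS are shown because the H3K4me3 domain covered them in the 2 earlier stages and left them out in NFOs. They are the RefSeq promoter window (build GRCm38) up to the GENCODE TSS, 157 bases on the plus strand at chr16:91225300-91225456, of which 66.9% are G or C, with 14 CpG. An E-box would be in capitals.
Olig2 promoter: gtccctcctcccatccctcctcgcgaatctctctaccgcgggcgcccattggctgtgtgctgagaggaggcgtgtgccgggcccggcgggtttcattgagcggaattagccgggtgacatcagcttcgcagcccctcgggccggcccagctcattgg
No CANNTG was found in these 157 bases, and 50.8% of the 32851 RefSeq promoters held at least 1 in the same stretch of their window. CANNTG reads the same on either strand, so 1 search covers both strands.

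Olig1 (ENSMUSG00000046160.6, chr16:91269772-91271933, plus strand, 2162 bp in 1 exon) lies 41094 bp beyond the end of Olig2 in the same orientation. In NSCs its H3K4me3 peak of 3883 bp reached from 311 bp before the TSS to 3571 bp after it, with a fold enrichment of 10.9. In OPCs the peak of 3565 bp reached from 69 bp before to 3495 bp after, with a fold enrichment of 8.40. In NFOs the peak of 1566 bp ran from 966 to 2531 bp after the TSS, with a fold enrichment of 5.19, and it held no base of the start or of the coding region. The peaks of Olig1 therefore lay mostly over and beyond the gene rather than before its TSS. Their widths ranked 1092 of 33292 (NSC), 407 of 18284 (OPC) and 755 of 21736 (NFO), in the top 3.28%, 2.23% and 3.47%. Coverage of the 10 kb around the TSS was 3883, 3565 and 1779 bp, which 7.78%, 2.17% and 2.99% of protein-coding genes matched or exceeded. At each stage Olig1 had less than Olig2 had, and both had their lowest coverage in NFOs. H3K27me3 covered 0 bp at Olig1 in each cell type.

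Olig3 (ENSMUSG00000045591.6, chr10:19356533-19358604, plus strand, 2072 bp in 1 exon) carried both marks. The H3K27me3 peak over the gene measured 12418 (NSC), 11636 (OPC) and 11220 bp (NFO), with fold enrichments of 5.17, 5.76 and 5.25. It ran from 5944 bp before to 6473 bp after the TSS in NSCs, from 3381 bp before to 8254 bp after in OPCs, and from 3007 bp before to 8212 bp after in NFOs. By width these peaks ranked 113 of 36069, 105 of 29417 and 93 of 12688. The marked stretch was thus several times longer than the gene and similar in extent in the 3 libraries. H3K27me3 covered 10000, 9278 and 8946 bp of the 10 kb around the TSS, which 0.419%, 0.269% and 0.378% of protein-coding genes matched or exceeded.

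The H3K4me3 peak of Olig3 was narrow and sat inside that domain, on the upstream side of the TSS. It measured 1080 (NSC), 879 (OPC) and 938 bp (NFO), with fold enrichments of 7.86, 4.61 and 6.99. It started 982, 873 and 931 bp before the TSS and ended 97, 5 and 6 bp after it, so it stopped at the start of the gene, where the peaks of Olig1 and Olig2 ran on through the gene. The OPC peak lay wholly within the bases that were also covered in NSCs and NFOs, 879 in all. In NSCs 5 further H3K4me3 peaks of 162 to 566 bp were listed within 15 kb of the TSS, while OPCs and NFOs had none there. Those with fold enrichments of 3.26 and 3.35 were below the study's threshold for histone peaks, above 3.5. Rank by width was 12533 of 33292, 10074 of 18284 and 2792 of 21736, which placed Olig3 far below Olig1 and Olig2 in H3K4me3 width.

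**Figure D2:**
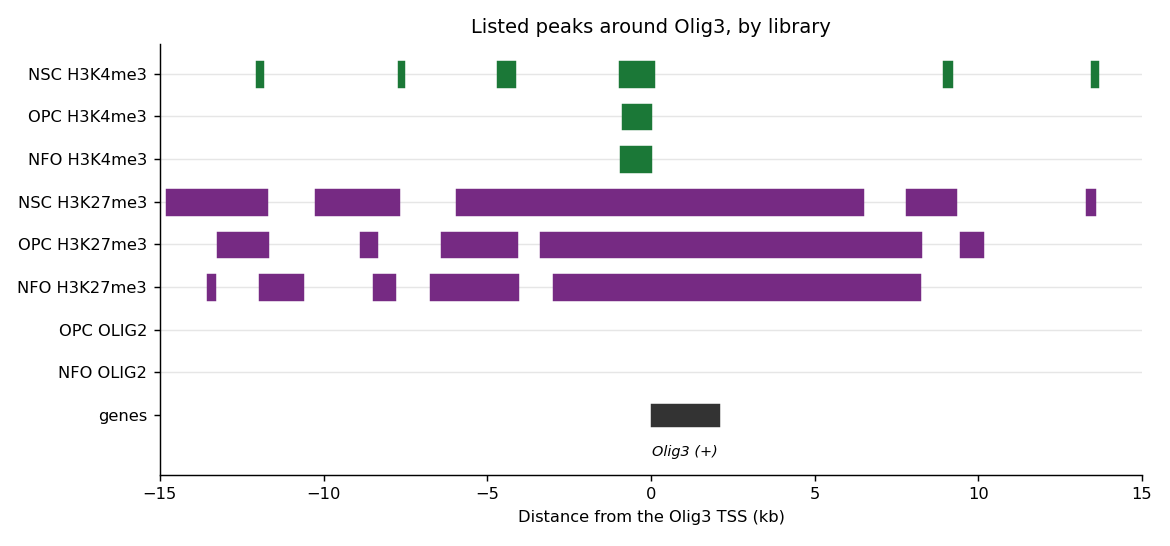
Listed peaks (boxes) within 15 kb of the Olig3 TSS in the 8 ChIP-Seq lists, 1 library each, against distance from the TSS in kb. A narrow H3K4me3 peak (879 to 1080 bp) ends near the TSS within an H3K27me3 peak of 11220 to 12418 bp in each cell type, and no OLIG2 peak is listed.

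The bases before the Olig3 TSS are shown because both marks covered them in all 3 cell types. They are the RefSeq promoter window (GRCm38) up to the GENCODE TSS, 244 bases on the plus strand at chr10:19356289-19356532, of which 51.2% are G or C, with 4 CpG. Capitals mark an E-box.
Olig3 promoter: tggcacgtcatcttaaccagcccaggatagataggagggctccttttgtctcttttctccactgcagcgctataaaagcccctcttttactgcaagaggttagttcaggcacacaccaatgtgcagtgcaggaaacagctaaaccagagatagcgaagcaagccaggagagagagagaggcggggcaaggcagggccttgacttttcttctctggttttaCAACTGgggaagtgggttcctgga
The window held 1 E-box, CAACTG, and 65.6% of the 32851 RefSeq promoters held at least 1 in the same stretch. For Olig1 the RefSeq table used here gave no promoter.

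**Figure D3:**
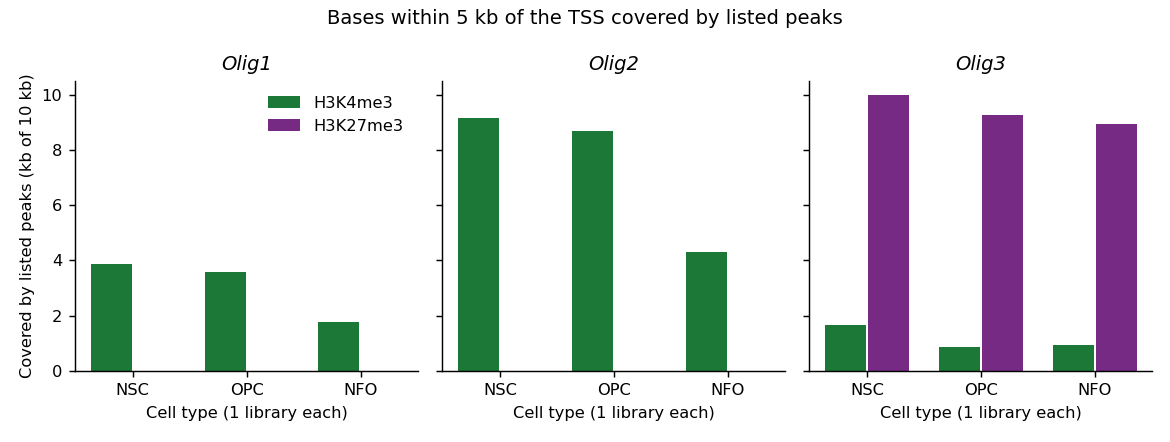
Bases (kb, of the 10 kb centred on the TSS) covered by listed H3K4me3 (green) and H3K27me3 (purple) peaks at each gene in NSCs, OPCs and NFOs, 1 library each, so there are no error bars. H3K4me3 covers 9.15 kb at Olig2 in NSCs and H3K27me3 covers 10 kb at Olig3 in NSCs, while H3K27me3 is at 0 for Olig1 and Olig2.

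By chromatin state within 2 kb of the TSS, Olig1 and Olig2 were K4 only (H3K4me3 peaks with no H3K27me3 peak) and Olig3 was bivalent (bases shared by both peaks and no other peak) in all 3 cell types. K4 only genes made up 52.5%, 49.6% and 38.9% of protein-coding genes in NSCs, OPCs and NFOs, and 30.2% were K4 only in all 3, so the state of Olig1 and Olig2 was common. Bivalent genes made up 4.81%, 2.71% and 1.25%, and 66 genes, or 0.301%, were bivalent in all 3 as Olig3 was. The bivalent call of Olig3 in OPCs rested on an H3K4me3 peak with a fold enrichment of 4.61 and was lost with peaks above 5-fold.

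Between 100 kb before Olig2 and 100 kb after Olig1 (chr16:91125457-91371933, 246477 bp), OLIG2 itself had 3 listed peaks in OPCs and 1 in NFOs. The first OPC peak, chr16:91228282-91228511 with a fold enrichment of 12.6, lay in Olig2, with all 230 bases in its 3′ UTR and its summit 2940 bp after the TSS. The second, chr16:91273005-91273234 with 6.77, lay with its summit 3348 bp after the Olig1 TSS, past the end of that gene, in an intron of the long intergenic noncoding RNA Gm15966 (ENSMUSG00000085865.2, minus strand, chr16:91271777-91329043). The third, chr16:91301175-91301404 with 20.5, lay in an intron of Gm15966 too, with its summit 31518 bp after the Olig1 TSS and 24450 bp past the nearest TSS, one of Gm15966. The single NFO peak, chr16:91301138-91301373 with a fold enrichment of 10.6, overlapped it. The strongest OLIG2 site of the locus was therefore the one listed at both stages, and neither site near Olig2 or Olig1 was listed in NFOs. Genome-wide, 14.3% of OPC OLIG2 peaks overlapped an NFO peak and 6.26% of NFO peaks an OPC peak. An OPC site not listed in NFOs was thus usual. By fold enrichment the 3 OPC peaks ranked 1447, 4816 and 300 of 7384 and the NFO peak 4763 of 16911.

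For scale, all of the window's OPC and NFO OLIG2 peaks passed the study's threshold for OLIG2 (FDR below 0.05 and fold enrichment above 5). A protein-coding gene had a median of 1 listed OPC peak and 2 NFO peaks within 100 kb of its TSS, and 8.36% and 30.4% had 3 or more. In the gene or up to 5 kb upstream, an OLIG2 peak was listed for 1 of the 3 OLIG genes in OPCs, Olig2, against 16.5% of protein-coding genes, and for 0 of 3 in NFOs, against 28.2%. The nearest OLIG2 peak to the Olig3 TSS was 149698 bp away in OPCs, and 65302 bp away in NFOs with a fold enrichment of 4.06, below the threshold. In NFOs the nearest peak was 75799 bp from the Olig2 TSS and 31484 bp from that of Olig1, so within 100 kb each of the 3 genes had 1 NFO peak, while in OPCs Olig1 and Olig2 had the same 3 and Olig3 had 0.

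**Figure D4:**
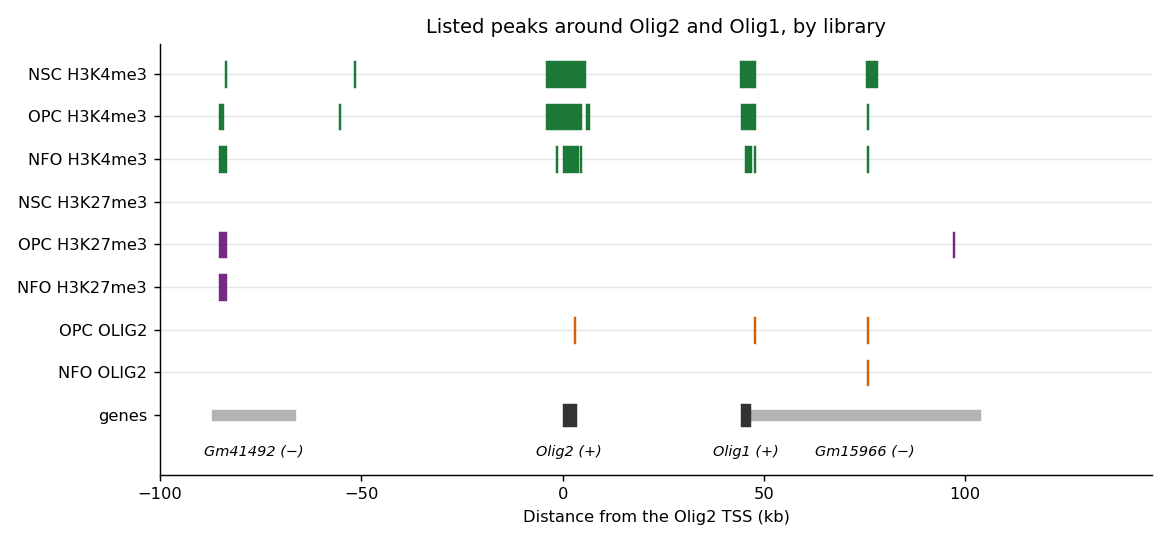
Listed peaks (boxes) in the 8 ChIP-Seq lists, 1 library each, between 100 kb before Olig2 and 100 kb after Olig1, against distance from the Olig2 TSS in kb. The 3 OPC OLIG2 peaks and the 1 NFO OLIG2 peak sit on H3K4me3 peaks, and an H3K27me3 peak is listed in OPCs and NFOs 84.4 kb before Olig2 and not in NSCs.

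All of these OLIG2 peaks overlapped an H3K4me3 peak in each of the 3 cell types, and none overlapped H3K27me3. Over the whole lists, 10.5% of OPC and 5.19% of NFO OLIG2 peaks overlapped H3K4me3 peaks of all 3 cell types. H3K27me3 peaks of NSCs, OPCs and NFOs overlapped 15.2%, 10.5% and 2.65% of all OPC OLIG2 peaks. For NFO OLIG2 peaks these shares were 15.8%, 9.75% and 2.44%, so the lack of H3K27me3 overlap was common. At the distal site the H3K4me3 peak measured 2593 (NSC), 363 (OPC) and 203 bp (NFO), with fold enrichments of 8.28, 13.5 and 7.39. Its rank by fold enrichment was 6989 of 33292, 484 of 18284 and 3507 of 21736. The peak there was thus broad in NSCs, and in OPCs and NFOs its width was closer to that of the OLIG2 peaks, 230 and 236 bp. At the site past Olig1, NFOs also had a small H3K4me3 peak of 213 bp with a fold enrichment of 4.12, where OLIG2 was listed in OPCs alone.

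The distal site is shown whole because it was the one OLIG2 peak shared by OPCs and NFOs. It is the union of both peaks, 267 bases of GRCm38 on the plus strand at chr16:91301138-91301404, of which 199 lie in both. Capitals mark E-boxes.
Distal site: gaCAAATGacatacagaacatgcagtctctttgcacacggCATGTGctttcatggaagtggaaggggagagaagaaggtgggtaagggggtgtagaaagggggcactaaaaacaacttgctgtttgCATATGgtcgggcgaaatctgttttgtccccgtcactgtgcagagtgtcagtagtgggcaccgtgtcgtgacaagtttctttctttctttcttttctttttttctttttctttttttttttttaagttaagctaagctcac
It held 3 E-boxes. CAAATG lay in the NFO peak alone, while CATGTG as well as CATATG lay in the bases common to both peaks. Of the 7318 OPC peaks with the same width as the site's (230 bp), 70.5% held at least 1 E-box, with a mean of 1.25, where the site's own OPC peak held 2. Among these peaks 6.18% held CATATG, 14.1% held CAAATG and 16.8% held CATGTG, on either strand. In the RefSeq genome 89 of its 267 bases are marked as repeat, in runs of 25 bases (57 to 81 of the printed sequence) and 64 bases (196 to 259), outside the E-boxes.

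The OPC peak past Olig1 is shown because it was the nearest OLIG2 peak to that gene. It is 230 bases of GRCm38 on the plus strand at chr16:91273005-91273234.
Olig1 downstream site: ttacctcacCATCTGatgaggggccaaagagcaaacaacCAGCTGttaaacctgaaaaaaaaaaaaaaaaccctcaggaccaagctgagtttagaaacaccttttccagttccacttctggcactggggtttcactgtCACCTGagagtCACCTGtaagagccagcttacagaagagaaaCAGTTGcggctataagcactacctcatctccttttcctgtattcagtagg
It held 5 E-boxes. CACCTG stood at 2 positions, while CATCTG came first, CAGCTG after it and CAGTTG last. At least 5 were found in 1.11% of the 7318 OPC peaks of this width, so the site was rich in these letters although its fold enrichment was the lowest of the 3. In the RefSeq genome 42 of its 230 bases are marked as repeat, in runs of 6 bases (1 to 6 of the printed sequence) and 36 bases (45 to 80). The longer run takes in the last base of CAGCTG. The peak in the Olig2 3′ UTR held 1, CACGTG, a form found in 2.87% of the OPC peaks of this width.

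Outside the genes, the H3K27me3 of the locus lay at a single place in both later stages. An intron of the long intergenic noncoding RNA Gm41492, with its middle 84.4 kb before the Olig2 TSS, had an H3K27me3 peak of 1693 bp with a fold enrichment of 7.91 in OPCs and of 1529 bp with 4.84 in NFOs. H3K4me3 was listed over it too, as a peak of 771 bp with 3.09 in OPCs and of 1548 bp with 3.84 in NFOs. The OPC peak was below the study's threshold for histone peaks, a fold enrichment above 3.5. In NSCs the place had an H3K4me3 peak of 220 bp with 6.17 and no H3K27me3 peak, and the whole window had none. OPCs had 1 more H3K27me3 peak of 172 bp with a fold enrichment of 3.76 in Gm15966.

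RIP sites were listed for Olig2 and for neither Olig1 nor Olig3. The whole OLIG2 list named 613 genes and the IgG list 618, so most genes had no site in either. The OLIG2 list held 42 sites on the Olig2 transcript (ENSMUST00000035608, 91.2 RPKM) and the IgG list 2. By number of OLIG2 sites this transcript ranked 723 of 1961, where the median was 24. Its interval of 3128 bp was short, number 156 of 2054 from the shortest, with a median of 50700 bp. The rank by number takes no account of length. The tags per OLIG2 site ranged from 119 to 2279 with a median of 325, over widths of 1 to 30 bp, and the p-value the peak caller gave from 1.53e-09 to 0.00972. By part of the gene, 38 sites with 86.9% of the tags lay in the 3′ UTR and 2 sites with 11.6% in the 5′ UTR. The coding sequence had 2 with 1.52%, and the intron 0. In this order the parts are 40.6%, 7.82%, 30.1% and 21.5% of the gene's length. Without the intron the 3′ UTR is thus a larger share than 40.6%. The sites thus followed the spliced message and were densest after the stop codon. The FDR column of the list gives only upper bounds, which for these sites ran from 0.401 to 0.451. Over the whole list the values ran from 0.395 to 0.451, so it sets no site of any gene, Olig2 included, at a low FDR.

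The 2 IgG sites were single bases, chr16:91227549 with 175 tags and chr16:91227760 with 126 tags, both in the 3′ UTR and both within OLIG2 sites. The peak caller gave them p-values close to its listing limit, 0.00536 and 0.00992. The OLIG2 site over the first held 1717 tags over 9 bp, a ratio of 9.81 (exact 95% interval 8.39 to 11.5), and its highest position held 629, a ratio of 3.59 (3.04 to 4.27) to the IgG position. The OLIG2 site over the second was the same single base with 530 tags, a ratio of 4.21 (3.46 to 5.15). Over both sites together 2247 tags over 10 bp stood against 301 over 2 bp, a ratio of 7.47 (6.62 to 8.45), while their highest positions summed to 1159 against 301, a ratio of 3.85 (3.39 to 4.39). All of the ratios were above 2, the threshold of the study's methods. The intervals cover counting error only, and copies made by amplification are not told apart in the lists.

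Of the 42 OLIG2 sites of Olig2, 2 were overlapped by an IgG site, against 19.9% of the 45157 OLIG2 sites in the whole list. Summed over the transcript, 24703 tags over 247 bp of OLIG2 sites (100 per bp) stood against 301 tags over 2 bp of IgG sites (150.5 per bp). Their ratio of 82.1 thus compares unlike numbers of called bases. At the 2 overlapping sites the highest OLIG2 position held 3.59 and 4.21 times the IgG tags. The part of called bases and of tags per base in the summed ratio was not tested. This summed ratio was the highest of the 1878 transcripts in both lists, where the next was 12.5, the median 0.914 and 4.26% were above 2. Olig2 also ranked 2 of 2054 by RPKM, and over all distinct sites the lists held nearly equal tags, 1075509 and 1061581. The part of transcript level in the number of sites was not tested.

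**Figure D5:**
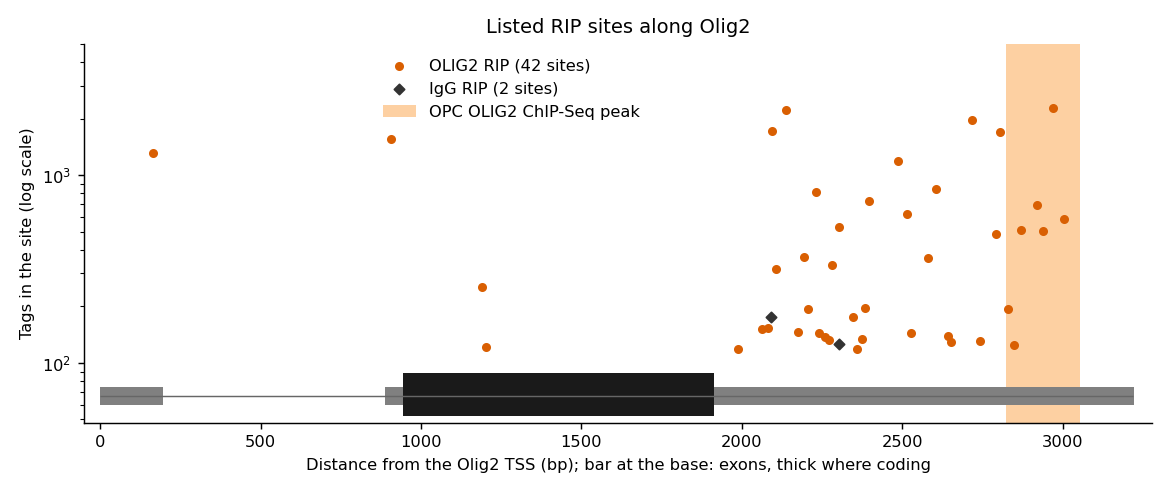
Tags (log axis) of each listed RIP site against its distance from the Olig2 TSS in bp, 1 OLIG2 library (circles, 42 sites) and 1 IgG library (diamonds, 2 sites), with the gene drawn at the base and the OPC OLIG2 ChIP-Seq peak shaded. Most sites lie in the 3′ UTR, and 7 of them, with up to 2279 tags, lie within the shaded peak.

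These 3 sites are shown because they had the lowest p-values of the OLIG2 list on Olig2. Positions in the lists count from 0, as their extremes fit the transcript ends, and are given here from 1 on GRCm38 chromosome 16, plus strand, as DNA letters.
Olig2 RIP site 91227582-91227608: ctttggctgaacactccaagggtctgg
Olig2 RIP site 91228409-91228438: cctcccacacacacaccttttgccaccgtt
Olig2 RIP site 91228165-91228183: catCAATTGgtttcttacc
They held 2235, 2279 and 1963 tags, with p-values from the peak caller of 1.53e-09, 1.65e-09 and 5.06e-09, and no IgG site was listed over any of them. Capitals mark an E-box, CAATTG, in the last. The second lies within the 3′ UTR peak of the OPC OLIG2 ChIP-Seq, which overlapped 7 RIP sites with 4895 tags in all. These were 18.4% of the sites and 22.8% of the tags in the 3′ UTR, of whose bases the peak takes 17.6%, so the share of sites was near the share of length. In the RefSeq genome 70 of the 230 bases of that ChIP-Seq peak are marked as repeat. A run of them, chr16:91228385-91228432, covers most of the second RIP site.

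Related genes were chosen with results of these data known. Among 18 class II bHLH relatives, 4 had the 6 histone calls of Olig3 within 2 kb of the TSS, Bhlhe22, Neurog2, Atoh1 and Tal1. By the stricter state, with shared bases and no other peak, 0 of these 18 and 0 of all 42 related genes were bivalent in all 3 cell types as Olig3 was. Among protein-coding genes this share was 0.301%, so a count of 0 in 42 says little about the related genes. Over all 42 related genes 13 had the calls of Olig1 and Olig2 and 4 those of Olig3, beside 30.2% and 2.23% of protein-coding genes. The 13 included Tcf4 and Tcf12 of the 3 E proteins, which pair with class II factors, Id2 and Id3 of the 4 Id inhibitors of bHLH dimers, and 8 of 17 lineage transcription factors, Sox8, Nkx2-2, Zeb2, Myt1, Zfp24, Prrx1, Yy1 and Hes5. The 2 closest relatives of the OLIG genes differed from each other. Bhlhe22 had 7768, 6525 and 5464 bp of H3K27me3 within 5 kb of the TSS and 3409, 1503 and 223 bp of H3K4me3 in NSCs, OPCs and NFOs. Bhlhe23 had 4201, 5061 and 4542 bp of H3K27me3 and 0 bp of H3K4me3. No class II relative had an OLIG2 peak in the gene or up to 5 kb upstream, 0 of 18 in either list, beside 16.5% and 28.2% of protein-coding genes in OPCs and NFOs. The counts were 6 and 6 of 17 for lineage transcription factors, 1 and 2 of 3 for E proteins, and 1 and 1 of 4 for Id inhibitors.

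The genes most like each OLIG gene were taken by the Euclidean distance over 6 values, the fraction of the 10 kb around the TSS covered in each histone list, where 0 is the same pattern. Nearest to Olig1 were Cops5, Cspp1, Txndc16, Cdca4 and Gpr137c, at distances of 0.0196 to 0.0274. Nearest to Olig2 were Bahcc1, Nr2f1, Pou3f2, Tnrc18 and Pou3f3, at 0.0647 to 0.155, of which Bahcc1 had 8763, 8209 and 4148 bp of H3K4me3 and 0 bp of H3K27me3. The 5 nearest to Olig3 included Hoxd8, Hoxa7, Hoxb2 and Hoxb5, at 0.0706 to 0.0973. The neighbours Olig1 and Olig2 were 0.778 apart, Olig1 and Olig3 1.67, and Olig2 and Olig3 1.99. Ordered by this distance, Olig1 was number 539 from Olig2 among the 21938 genes, and Olig2 was number 21532 from Olig1.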

How the data were processed

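The authors mapped reads to mm10 (GRCm38) with Bowtie2, per the labels and methods, called H3K4me3 and H3K27me3 peaks with MACS2 (broad) and OLIG2 peaks with SPP, and called RIP sites with ASPeak on GENCODE transcripts. Versions are not given in the sources used here. Peaks were called per library. The deposited lists give a fold enrichment (ratio), a −log10 FDR and, for OLIG2, a summit. The deposited RIP lists give the tag count, a p-value and the transcript's RPKM, equal in both lists. Read depth is unknown.

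All listed peaks were used. The GENCODE M21 annotation and the RefSeq genome (GRCm38) have the files' build, and 0 listed peaks passed a chromosome end. Sites listed for several transcripts were counted once. Tag ratios have exact Clopper-Pearson intervals. Code used Python 3.11.15, pandas 2.3.3 and SciPy 1.17.1, and was tested on simulated peaks. Alternatives were thresholds on fold enrichment, windows and overlaps. Genes named beside the OLIG genes were Bhlhe22 and Bhlhe23, related genes with the same 6 histone calls, the nearest genes of OLIG2 peaks in the window, and the 5 genes nearest in coverage. Members and lists were chosen with earlier results of these data known. The 3 input libraries and OLIG2 in NSCs were not analysed here. Some genes that these rules select are not reported here.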

Additional observations from a re-analysis of the deposited data

How the results depend on the processing

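No paired analysis was possible because each group had 1 library. Of 48 recomputed counts and ratios, 46 stayed within 1.5 times the reported value (for the tag ratio, within its interval). Several of these could not move. The RIP counts of Olig1 and Olig3 and the NFO count of OLIG genes with an OLIG2 peak were 0 before stricter settings. Every OLIG2 RIP site of Olig2 already had a p-value from the peak caller below 0.01. With peaks above 5-fold, 0 OLIG genes kept a bivalent domain in OPCs in place of 1, since the H3K4me3 peak of Olig3 has a fold enrichment of 4.61. With sites of p below 0.001, Olig2 had 17 OLIG2 RIP sites in place of 42. The threshold itself removed these. Also above 5-fold, 2 of 3 OLIG genes had H3K4me3 in OPCs and 2 in NFOs. Of 54 coverage values, 7 moved by over 1.5 times, 3 of them only because H3K27me3 at Olig3 was counted over 10 kb on either side in place of 5. The tag ratio of the single RIP site with the lowest p could not be computed, since no IgG site overlaps it. Depth limits a missing peak to not listed, since reads behind the lists are unknown.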
